A study of Homo sapiens with 8 samples.

Results

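The subunits of the mitochondrial respiratory chain and of ATP synthase that are encoded in the nucleus were described from a list of 35 genes. A gene was taken up when a probe set of the array was annotated to its symbol and to no other, and each gene was represented by its probe set with the highest mean over the 8 arrays. This gave 33 genes of 19774 with a probe set of their own, namely 18 of complex I, 3 of complex II, 5 of complex III, 5 of complex IV and 2 of complex V. SDHB and UQCRFS1 were not analysed here. The arrays held total RNA of 4 human neuroblastoma cell lines, all grown in RPMI medium with serum and exposed for 48 h to 2.5 µM ciclopirox, an iron-chelating antifungal, or to its vehicle. The lines were SKNAS, NB1691, SKNBE2 and SKNAS/shHIF1a, a derivative of SKNAS with a short hairpin RNA against HIF1A, which encodes the subunit of hypoxia-inducible factor (HIF) that oxygen controls. The study, by its title, asked about Myc signalling after inhibition of JMJD2B, a demethylase of histones, with this drug. In the labels the Myc status is c-Myc for SKNAS but N-Myc for NB1691, SKNBE2 and the derivative of SKNAS, so lines were grouped here by origin.

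The respiratory chain passes electrons from NADH (complex I) and succinate (complex II) through ubiquinone, complex III and cytochrome c to oxygen at complex IV, and ATP synthase (complex V) uses the proton gradient built on the way. The electrons travel over iron-sulfur clusters and hemes, so several subunits bind iron, while most others shape or stabilise the complexes. Complex I has a matrix arm, which oxidises NADH and reduces ubiquinone, and a membrane arm, which pumps protons. All genes described here are nuclear, and their transcripts are made apart from those of mitochondrial DNA.

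Promoters are shown for 3 of the genes, because 1 had the largest change under ciclopirox and the others hold letters that are known words of regulators. Sequences are RefSeq's for the build GRCh38.p14, each with 250 bases before the gene's start and 50 after it, and 27 of the 33 genes had an entry. Capitals mark ACGTG (the core of the HIF response element), CACGTG (the E-box bound by Myc and Max), the long palindrome bound by NRF1 and CGGAAG (bound by GABP and other ETS factors), searched on both strands, so that CACGT and CTTCCG are the reverse forms of ACGTG and CGGAAG. Every CACGTG also holds ACGTG. NDUFS6 lies at chr5:1801157-1801456 on the plus strand and holds no exact copy of any of the 4 words. Near copies were not searched for in any promoter. NDUFS7 lies at chr19:1383657-1383956 on the plus strand and is the gene here with CACGTG. SDHD lies at chr11:112086623-112086922 on the plus strand, with the NRF1 palindrome, the longest run of capitals, between 2 reverse copies of CGGAAG.
NDUFS6: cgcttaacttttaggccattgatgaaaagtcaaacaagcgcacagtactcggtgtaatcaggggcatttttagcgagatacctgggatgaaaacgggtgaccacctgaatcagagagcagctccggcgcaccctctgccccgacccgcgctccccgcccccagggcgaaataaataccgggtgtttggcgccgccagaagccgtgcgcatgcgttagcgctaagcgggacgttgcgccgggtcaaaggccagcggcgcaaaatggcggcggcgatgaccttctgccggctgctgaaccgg
NDUFS7: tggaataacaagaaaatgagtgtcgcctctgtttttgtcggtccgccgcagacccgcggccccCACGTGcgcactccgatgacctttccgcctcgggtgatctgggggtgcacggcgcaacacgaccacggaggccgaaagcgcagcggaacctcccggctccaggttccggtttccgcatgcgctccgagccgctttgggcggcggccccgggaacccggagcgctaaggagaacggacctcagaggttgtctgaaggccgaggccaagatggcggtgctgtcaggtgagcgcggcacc
SDHD: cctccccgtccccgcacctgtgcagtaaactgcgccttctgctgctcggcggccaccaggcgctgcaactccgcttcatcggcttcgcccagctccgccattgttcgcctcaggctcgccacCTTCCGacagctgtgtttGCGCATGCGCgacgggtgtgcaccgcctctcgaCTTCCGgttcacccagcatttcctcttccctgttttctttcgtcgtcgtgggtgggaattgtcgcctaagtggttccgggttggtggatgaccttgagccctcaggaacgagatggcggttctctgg

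ACGTG occurred in 6 of the 27 promoters (22.2%), against 26.1% of the 11666 promoters of genes tested. CACGTG occurred in 1 (3.70%), against 9.99%. The NRF1 palindrome occurred in 2 (7.41%), those of SDHD and NDUFA8, against 2.14%. CGGAAG occurred in 8 (29.6%), against 30.5%. A match is a description of these letters only.

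Values are log2 signals, and 14517 genes with a mean of at least 3.21 were tested. The mean levels of the 33 genes lay between 9.32 and 12.52 and the lowest value on any array was 8.45, so this filter removed none of them. There was 1 array per line and treatment, so the number of arrays limits the precision. SKNAS/shHIF1a derives from SKNAS, so the ciclopirox changes of these lines are not independent, though the test counts each of them. Errors of the ciclopirox change come from its spread between lines, which limma draws toward a spread common to all genes tested. For COX4I1 the changes of the 4 lines had an SD of 0.03, while its SE is given as 0.11. Differences between single lines rest on that same spread, with the vehicle and ciclopirox arrays of a line in place of replicates. Their errors and p-values therefore do not measure the variation within a line. HIF1A had the lowest levels of all arrays in SKNAS/shHIF1a, at 11.71 with vehicle and 11.09 with ciclopirox, against 11.88 to 12.25 elsewhere, but the difference from SKNAS (-0.69 ± 0.21, SE) did not pass the test (limma, adjusted p = 0.257). Neuroblastoma markers (9 of 11 listed genes measured) had mean levels of 9.68 to 10.33 in NB1691 and SKNBE2 and 6.43 to 7.67 in both SKNAS lines. Mesenchymal markers (7 of 7) had 5.17 to 5.95 and 8.15 to 10.43. Lymphoid and myeloid (7 of 8), endothelial (5 of 5) and epithelial (7 of 7) marker lists had mean levels of 2.83 to 5.05 on every array. Levels on these arrays do not tell fewer cells of a kind from less RNA per cell.

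Under ciclopirox the transcripts of the respiratory chain were mostly slightly lower. Of the 33 genes, 31 had a lower mean (52.2% of all genes tested did), and 13 were lower in all 4 lines (16.0% of all genes). None was higher in all 4 lines (11.8% of all genes). The median change was -0.16 on the log2 scale, against -0.01 over all genes tested. No single gene passed the test: 0 of 33 reached an adjusted p under 0.05 in limma (0.0% of all genes did), with a smallest adjusted p of 0.153. At an unadjusted p under 0.05 there were 7 lower (10.2% of all genes) and 0 higher (7.67%). Without SKNBE2 the count lower in all lines was 21, when 23.2% of all genes were.

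The lines differed in how many of the genes were lower. In SKNAS 27 of 33 were lower under ciclopirox (52.8% of all genes), with a median change of -0.13. In NB1691 29 were lower (52.1%), with a median of -0.18. In SKNAS/shHIF1a 28 were lower (52.8%), with a median of -0.20. SKNBE2 had the fewest, 20 (51.1%), with a median of -0.11. A change of at least 0.32 downward was seen for 11 genes in SKNAS (19.9% of all genes), 7 in NB1691 (25.7%), 6 in SKNBE2 (18.4%) and 10 in SKNAS/shHIF1a (25.1%). These shares are not all above the background, since 7 of 33 in NB1691 and 6 of 33 in SKNBE2 are at or under it. With the probe set used, no gene of the chain was higher by as much in any line, where 17.7%, 21.5%, 19.0% and 21.3% of all genes were. All 33 genes had mean levels above the 75th percentile of the genes tested (8.85), so the shares of all genes come mostly from dimmer genes. Shares among genes of like level were not computed. With these probe sets changes were small, and NDUFS6 in SKNAS/shHIF1a was the 1 value of 2-fold or more. Among other, dimmer probe sets above the filter, NDUFA6 (level 8.48) had -1.15 and COX5A (6.61) -1.01, both in SKNAS/shHIF1a. One of NDUFB8 (6.13) had 1.32 in NB1691 and was higher in all 4 lines (mean 0.67). One of NDUFA10 (3.96) had 2.07 in NB1691, and one of UQCRC2 (4.72) had 1.36 in SKNBE2 and 1.18 in SKNAS/shHIF1a. Marker lists had changes as well: the 9 neuroblastoma markers had median changes of -0.42 in SKNAS, -0.59 in NB1691, 0.06 in SKNBE2 and -0.94 in SKNAS/shHIF1a, and the 7 mesenchymal markers 0.73, -0.06, 0.04 and 1.10. The 6 epithelial markers above the filter had 0.89, -0.17, -0.02 and 0.40, and the 3 endothelial markers 0.32, 0.14, -0.30 and -0.26. The 2 lymphoid and myeloid markers had -0.03, 0.49, -0.05 and -1.0. Of these markers none passed the limma test. At an unadjusted p under 0.05, 3 neuroblastoma markers were lower (10.2% of all genes), and 2 mesenchymal, 1 epithelial and 1 lymphoid or myeloid marker were higher (7.67%). Their part in the changes of the chain was not tested.

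**Figure D1:**
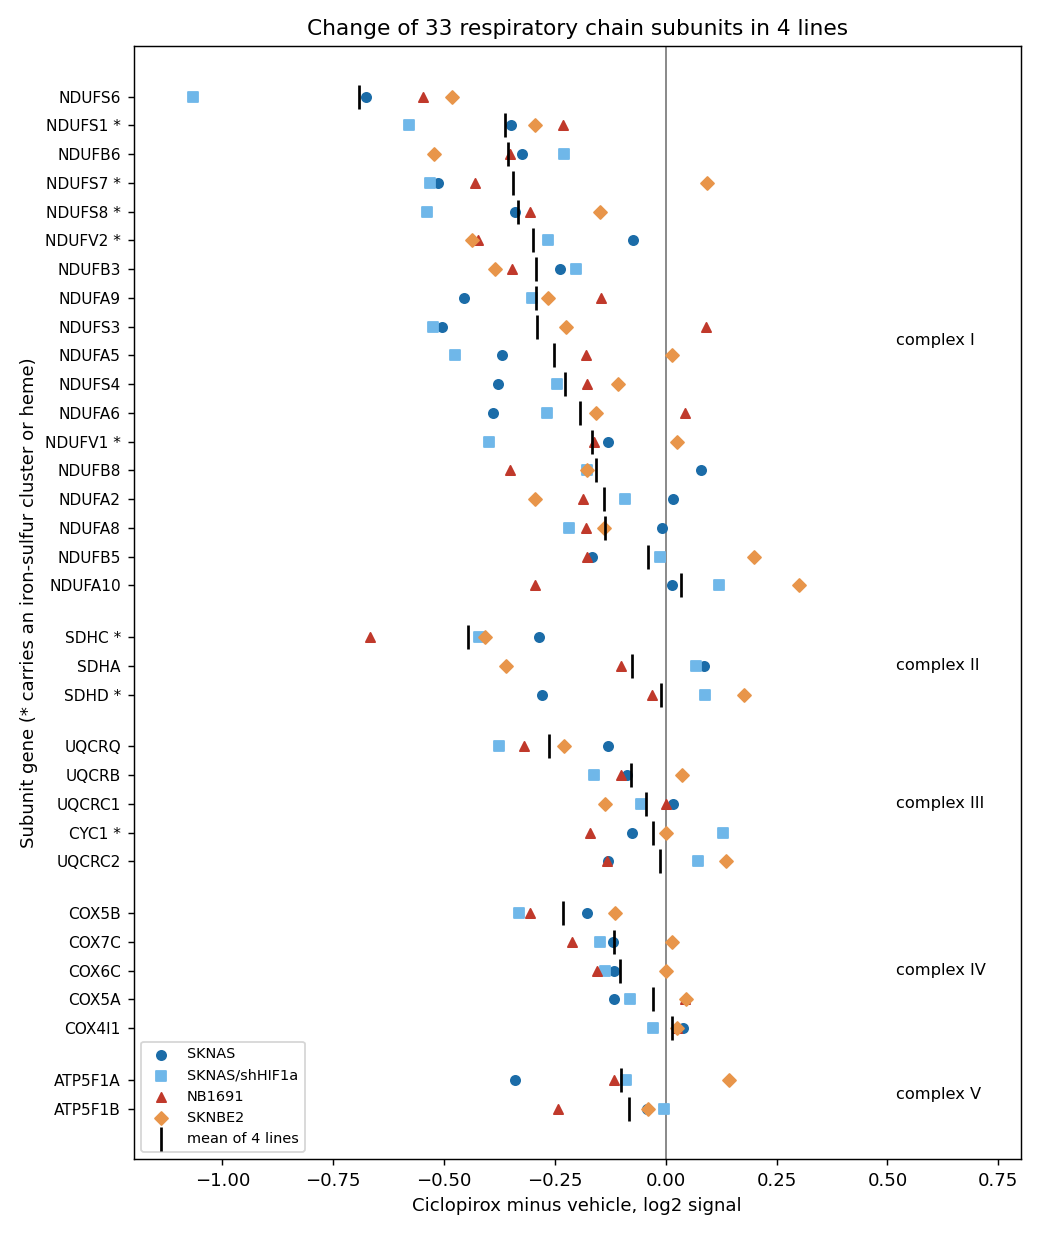
Change of each of the 33 genes under ciclopirox (log2 signal, ciclopirox minus vehicle, horizontal axis), grouped by complex and ordered by mean change, with 1 symbol per cell line and a black bar at the mean of the 4 lines; an asterisk marks genes of subunits with an iron-sulfur cluster or heme. Nearly all complex I bars lie left of 0, with NDUFS6 farthest at -0.69, while most bars of complexes III to V lie within 0.15 of 0.

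In complex I, 17 of 18 genes had a lower mean (52.2% of all genes), 9 were lower in all 4 lines (16.0%), and the median change was -0.27. NDUFS6, a zinc-binding accessory subunit added late to the matrix arm, had the largest change of all members. Its levels with vehicle were 10.90 in SKNAS, 11.08 in NB1691, 11.51 in SKNBE2 and 10.83 in SKNAS/shHIF1a, and with ciclopirox 10.22, 10.53, 11.03 and 9.76. Every line was lower with the drug, while the ranges of the treatments overlapped because SKNBE2 was high on both arrays. The mean change was -0.69 ± 0.14 (SE, n = 4 lines; limma, adjusted p = 0.153), or 1.62-fold lower. With SKNAS and its derivative averaged as 1 line it was -0.63 (limma, adjusted p = 0.373). NDUFB6, a small membrane-arm subunit, was lower in all 4 lines, from -0.52 to -0.23 (mean -0.36 ± 0.12, adjusted p = 0.219).

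The iron-sulfur subunits of complex I were all lower in mean. NDUFS1, the large subunit that carries several clusters, had vehicle levels of 9.69 in SKNAS, 9.68 in NB1691, 10.39 in SKNBE2 and 9.84 in SKNAS/shHIF1a, and 9.34, 9.44, 10.10 and 9.26 with ciclopirox. Each line was lower with the drug, most in SKNAS/shHIF1a (-0.58), and the mean change was -0.36 ± 0.12 (limma, adjusted p = 0.221). Of the 5 probe sets of NDUFS1, 4 had a lower mean, between -0.56 and 0.19 in all, and the average of all 5 was -0.21. The higher one was dim (level 4.67), and 1 of the lower ones, at 3.51, hardly moved (-0.0006). NDUFS8, which holds clusters on the path to ubiquinone, had changes of -0.34 in SKNAS, -0.31 in NB1691, -0.15 in SKNBE2 and -0.54 in SKNAS/shHIF1a (mean -0.33 ± 0.12, adjusted p = 0.251). Of the 3 probe sets of NDUFS8 the dimmest (level 6.85) was higher (0.20), and the average of all 3 was -0.16. NDUFV2, a subunit of the NADH-oxidising module, had -0.07, -0.42, -0.44 and -0.27 in the same order (mean -0.30 ± 0.12, adjusted p = 0.284). With the probe set of highest mean, NDUFS1, NDUFS8 and NDUFV2 were thus lower in every line. NDUFS7, which carries the last cluster before ubiquinone, was lower in SKNAS (-0.51), NB1691 (-0.43) and SKNAS/shHIF1a (-0.53) and not in SKNBE2 (0.09), with a mean of -0.35 ± 0.15 (adjusted p = 0.299). NDUFV1, where NADH gives up its electrons, had a mean of -0.17 ± 0.12 (adjusted p = 0.515), from -0.40 in SKNAS/shHIF1a to 0.02 in SKNBE2, and of -0.05 when its 2 probe sets were averaged or -0.09 without SKNAS/shHIF1a.

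The other complex I genes had mean changes between -0.29 and 0.04. NDUFB3 and NDUFA9 (-0.29 each) and NDUFS4 (-0.23) were lower in all 4 lines. NDUFA10, an accessory subunit on the membrane arm, was the complex I gene with a higher mean (0.04 ± 0.14). Its 4 probe sets above the filter ranged from -0.39 to 0.53, all but the one used being dim (levels 3.42 to 4.17). The 12 matrix-arm genes had a median of -0.29 and the 6 membrane-arm genes -0.15, a split made after the values were seen. The difference of these medians was -0.29 in SKNAS, 0.14 in NB1691, -0.03 in SKNBE2 and -0.25 in SKNAS/shHIF1a, and it was -0.02 over the lines without SKNAS.

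Complex II, succinate dehydrogenase, was split. SDHC, a membrane anchor that helps to bind the heme, had vehicle levels of 11.11 in SKNAS, 10.68 in NB1691, 11.03 in SKNBE2 and 11.18 in SKNAS/shHIF1a, and 10.83, 10.02, 10.63 and 10.76 with ciclopirox. All lines were lower with the drug and only the SKNAS lines with ciclopirox overlapped the vehicle range. The mean change was -0.44 ± 0.12 (limma, adjusted p = 0.185), 1.36-fold lower, and all 5 probe sets of SDHC had a lower mean, from -0.55 to -0.26. With SKNAS and its derivative averaged as 1 line, the change of SDHC was -0.48 (limma, adjusted p = 0.398). SDHD, the other anchor, had changes of -0.28 in SKNAS, -0.03 in NB1691, 0.18 in SKNBE2 and 0.09 in SKNAS/shHIF1a, a mean of -0.01 ± 0.13 (adjusted p = 0.972) that was 0.08 without SKNAS. SDHA, the flavoprotein that oxidises succinate, had 0.09, -0.10, -0.36 and 0.07 in the same order (mean -0.08 ± 0.13, adjusted p = 0.790), and 0.02 without SKNBE2.

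The genes of complexes III, IV and V lay closer to 0. Those of complexes IV and V also had high mean levels, from 11.53 (ATP5F1B) to 12.52 (COX6C). Complex I had 9.32 (NDUFS7) to 11.59 (NDUFB5). Whether the size of the change goes with the signal level was not tested. In complex III the median change was -0.04. UQCRQ, a small accessory subunit, was lower in all lines, at -0.13 in SKNAS, -0.32 in NB1691, -0.23 in SKNBE2 and -0.38 in SKNAS/shHIF1a (mean -0.26 ± 0.11, limma, adjusted p = 0.299). UQCRB, a subunit near the ubiquinone site, had a mean of -0.08 ± 0.11 (adjusted p = 0.748), and -0.05 without SKNAS/shHIF1a. CYC1, the heme protein cytochrome c1, had -0.08, -0.17, 0.00 and 0.13, a mean of -0.03 ± 0.12 (adjusted p = 0.917) that was 0.02 without NB1691. The core proteins UQCRC1 and UQCRC2 had means of -0.04 and -0.01.

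In complex IV, where electrons meet oxygen, the 5 measured genes encode regulatory or accessory subunits and none holds heme. Their median change was -0.10. COX5B, a zinc-binding subunit, was lower in all 4 lines, at -0.18, -0.31, -0.11 and -0.33 (mean -0.23 ± 0.11, limma, adjusted p = 0.336), and all 4 of its probe sets had a lower mean. COX7C had a mean of -0.12 ± 0.11 (adjusted p = 0.622; -0.18 when its probe sets were averaged) and COX4I1, the common isoform of subunit 4, 0.01 ± 0.11 (adjusted p = 0.955). The ATP synthase genes ATP5F1A and ATP5F1B, which encode the alpha and beta subunits of the catalytic head, had means of -0.10 ± 0.13 (adjusted p = 0.718) and -0.08 ± 0.11 (adjusted p = 0.743). ATP5F1A ranged from -0.34 in SKNAS to 0.14 in SKNBE2, and its mean was -0.02 without SKNAS and -0.18 without SKNBE2. That of ATP5F1B was -0.03 without NB1691.

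**Figure D2:**
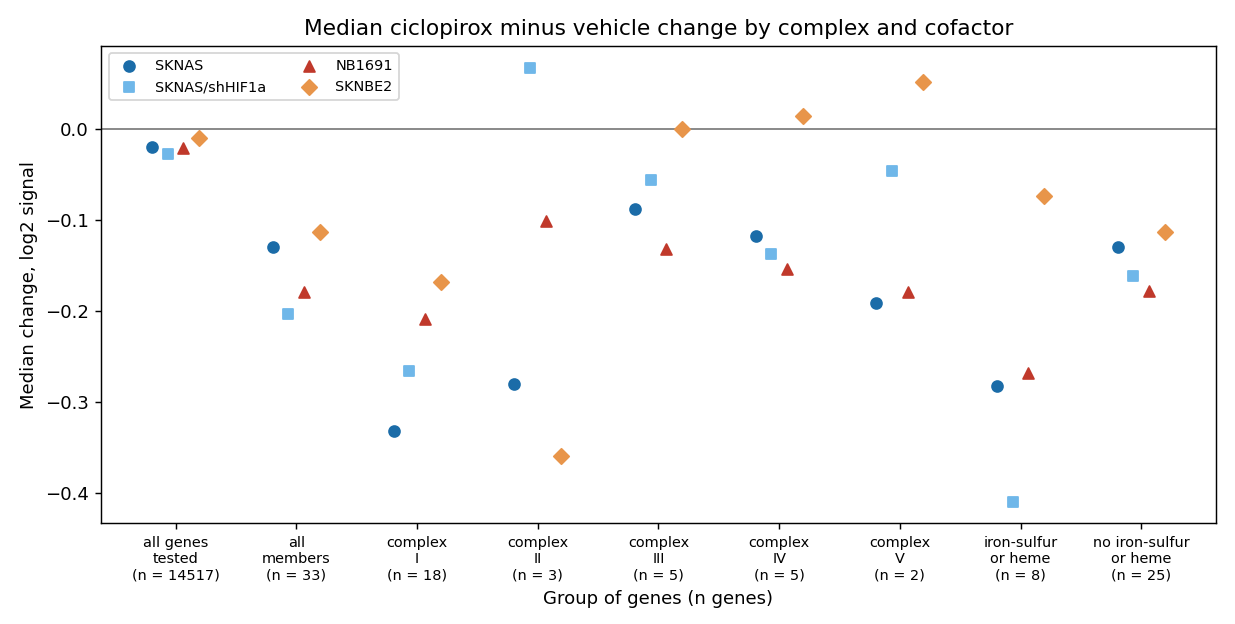
Median change under ciclopirox (log2 signal, vertical axis) in each of the 4 lines for all genes tested, the 33 genes, the 5 complexes and the genes with and without an iron-sulfur cluster or heme, with 1 symbol per line. The symbols of all genes lie near 0, and complex I is below 0 in every line, from -0.33 in SKNAS to -0.17 in SKNBE2.

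Set side by side, the median change was -0.27 in complex I and -0.08 over the 15 genes of complexes II to V. The difference of these medians was -0.21 in SKNAS, -0.08 in NB1691, -0.17 in SKNBE2 and -0.18 in SKNAS/shHIF1a, with the same sign in all lines. When the probe sets of a gene were averaged, the median of complex I was -0.16 and that of complex IV moved from -0.10 to -0.18, so complex I no longer had the lowest median. In SKNBE2 the median of the 3 complex II genes (-0.36) was below that of complex I (-0.17).

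The 8 genes of subunits with an iron-sulfur cluster or heme (NDUFS1, NDUFS7, NDUFS8, NDUFV1, NDUFV2, SDHC, SDHD and CYC1) had a median change of -0.32, and the other 25 had -0.14. SDHB and UQCRFS1, iron-sulfur subunits of complexes II and III, were not analysed, so every iron-sulfur gene in this comparison belongs to complex I. All 8 genes had a lower mean and 4 were lower in all lines, against 23 of 25 and 9 of 25. Over all genes tested these shares were 52.2% and 16.0%. Taken within each line, the difference of the medians was -0.15 in SKNAS, -0.09 in NB1691, 0.04 in SKNBE2 and -0.25 in SKNAS/shHIF1a, with a mean of -0.11 ± 0.12 (SD, n = 4 lines). It therefore had no common sign and was smaller than its spread between lines. The medians of the mean changes differed by -0.18, and by -0.08 when the probe sets of a gene were averaged. Within complex I, where 5 of 18 genes encode iron-sulfur subunits, the difference was -0.02, -0.13, 0.03 and -0.30 in the same order. Within the matrix arm it was 0.05, -0.13, 0.08 and -0.23. NDUFS6, with the largest change, has no iron-sulfur cluster, and SDHD and CYC1, which take part in binding heme, were near 0.

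No gene of the chain passed the test of a difference in response between line origins. The test on the 4 changes (SKNAS and SKNAS/shHIF1a against NB1691 and SKNBE2) called 0 of 33 in limma at an adjusted p under 0.05 (0.0344% of all genes), with 0 lower (4.97%) and 0 higher (6.35%) at an unadjusted p under 0.05 and a smallest adjusted p of 0.564. The largest differences were -0.45 ± 0.24 (SE) for NDUFS3, a core matrix-arm subunit, and -0.36 ± 0.25 for NDUFS6. That of NDUFS6 was -0.16 without SKNAS/shHIF1a and -0.55 without SKNAS, and that of NDUFS3 -0.29 without NB1691. COX5A alone was lower in both SKNAS lines and higher in NB1691 and SKNBE2 (6.53% of all genes were), and SDHA alone had the opposite pattern (6.36%). A second, dimmer probe set of COX5A was lower in all 4 lines.

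Between NB1691 and SKNBE2, 6 of 33 genes of the chain passed the test, where 25.1% of all genes tested did. The share was thus not above that of all genes. Under ciclopirox no tested gene of any kind had passed. SKNBE2 had the highest level of the 4 lines for 23 of 33 genes with vehicle and for 23 with ciclopirox. The same count over all genes tested was not made, so it is not read as a trait of the chain. In the comparison of NB1691 with SKNBE2, 6 genes were lower in NB1691 (12.2% of all genes tested) and 0 were higher (12.9%) at an adjusted p under 0.05 in limma. At an unadjusted p under 0.05, 13 were lower (18.7%) and 1 higher (19.2%). Both NB1691 arrays lay below both SKNBE2 arrays for 20 genes (31.6% of all genes) and above them for 3 (30.0%), and the median difference was -0.36.

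Of the 6 genes, 5 belong to complex I. NDUFA10 had levels of 9.98 with vehicle and 9.68 with ciclopirox in NB1691, and 10.70 and 11.01 in SKNBE2. Its arrays did not overlap between the lines, and the difference was -1.02 ± 0.20 (SE; limma, adjusted p = 0.0152). Only the probe set used for NDUFA10 was bright (mean 10.10), and its others above the filter lay at 3.42 to 4.17. Averaged over all 5 on the array, the difference was -0.27 and did not pass. UQCRC1, a core protein of complex III, had 8.86 on both NB1691 arrays and 9.78 and 9.64 on those of SKNBE2, a difference of -0.85 ± 0.16 (adjusted p = 0.0133). NDUFA8, a membrane-arm subunit that faces the intermembrane space, differed by -0.75 ± 0.16 (adjusted p = 0.0207), and NDUFB3 by -0.71 ± 0.16 (adjusted p = 0.0238). The iron-sulfur subunits NDUFS1 and NDUFV1 differed by -0.69 ± 0.17 (adjusted p = 0.0333) and -0.67 ± 0.18 (adjusted p = 0.0394). Averaged with its other, dim probe set (level 3.29), NDUFV1 differed by -0.42 and did not pass. These calls rested on few arrays: without the ciclopirox array of SKNBE2 0 remained past the test, without the ciclopirox array of NB1691 or the vehicle array of SKNBE2 1 did, and without the vehicle array of NB1691 or either SKNAS array 2 did. PPARGC1A, a coactivator of mitochondrial genes, was higher in NB1691 than in SKNBE2 by 1.35 ± 0.20 (adjusted p = 0.00673).

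**Figure D3:**
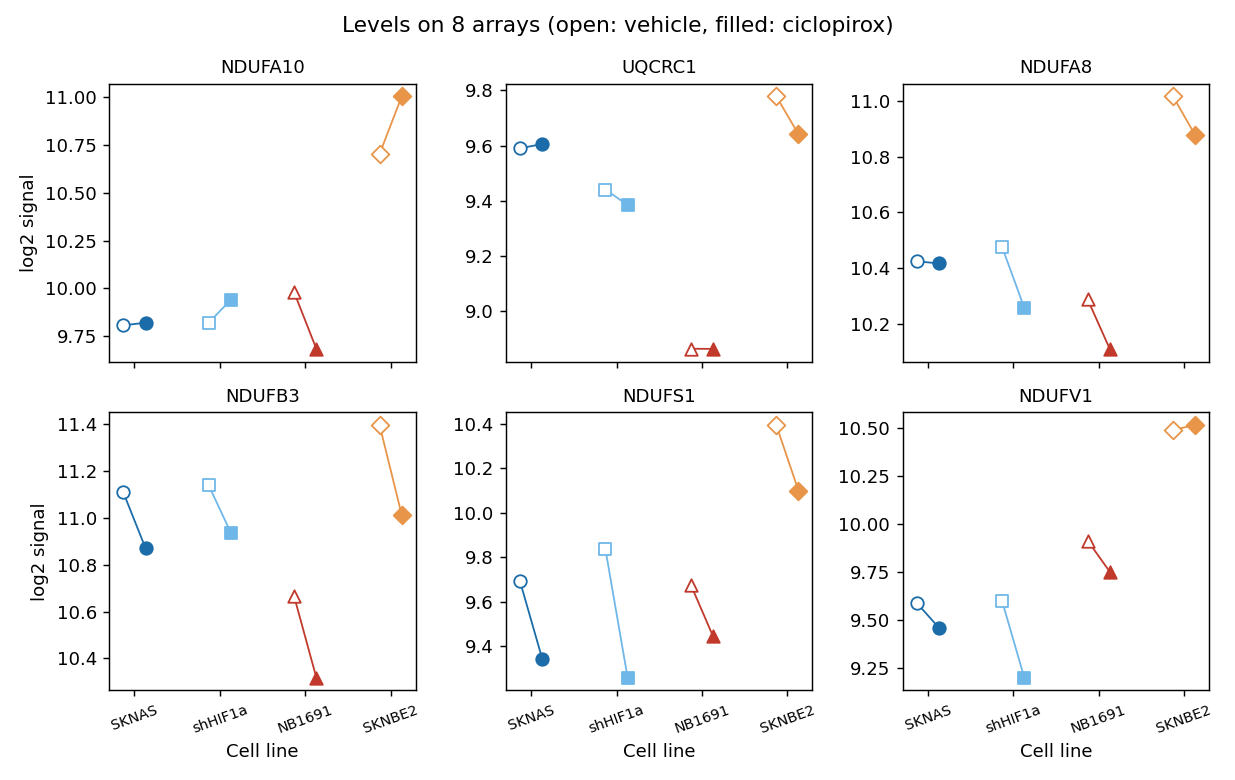
Levels (log2 signal, vertical axis, its range set for each gene) of the 6 genes that differed between NB1691 and SKNBE2, in the 4 cell lines on the horizontal axis, with open symbols for vehicle and filled symbols for ciclopirox, 1 array each. The SKNBE2 arrays of UQCRC1 lie at 9.78 and 9.64 and those of NB1691 both at 8.86.

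SKNAS and its HIF1A-knockdown derivative were compared next. Between them 0 of 33 genes passed the test in limma (1.58% of all genes did), and the median difference was -0.05. At an unadjusted p under 0.05, 0 were lower (6.08%) and 1 was higher (5.98%). The largest differences were those of NDUFA6, a matrix-arm subunit, higher in the derivative by 0.58 ± 0.18 (adjusted p = 0.258), and of NDUFB8, a membrane-arm subunit, at -0.35 ± 0.18 (adjusted p = 0.557; -0.19 without the ciclopirox array of SKNAS). NDUFA6 had 10.65 and 10.26 in SKNAS and 11.17 and 10.90 in the derivative, without overlap. Both arrays of the derivative lay below both SKNAS arrays for 6 genes (18.5% of all genes) and above them for 4 (18.3%).

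Against NB1691 and SKNBE2, the 2 SKNAS lines had lower vehicle levels for 21 of 33 genes (51.2% of all genes), and none passed the test. At an adjusted p under 0.05, limma called 0 of 33 (1.67% of all genes), with 6 lower (9.56%) and 0 higher (10.8%) at an unadjusted p under 0.05. NDUFS7 had the largest difference, with 9.03 in SKNAS and 8.98 in SKNAS/shHIF1a against 10.02 in NB1691 and 9.95 in SKNBE2, or -0.98 ± 0.19 (adjusted p = 0.118). SDHD had 9.10 and 8.87 against 9.65 and 9.95, a difference of -0.82 ± 0.23 (adjusted p = 0.186) that was -0.54 when its probe sets were averaged. Across both treatments, 12 genes were lower on every array of the SKNAS lines than on any of NB1691 and SKNBE2 (15.7% of all genes), and 0 were higher (15.5%). The SKNAS lines share an origin and are not independent of each other.

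The other genes of the pathway were described from lists. The complex I subunits outside the 35 (16 of 19 measured) had a median change of -0.29 under ciclopirox. All 16 had a lower mean (52.2% of all genes did) and 11 were lower in all 4 lines (16.0% of all genes were). Their largest changes were -0.57 ± 0.13 (SE) in NDUFB7 and -0.52 ± 0.15 in NDUFA7, both accessory subunits. The 16 other ATP synthase subunits had a median of -0.16, all 16 with a lower mean and 13 lower in all lines, led by ATP5MC1 (-0.49 ± 0.12), which encodes the c ring, and ATP5MF (-0.41 ± 0.12). The 3 other complex III subunits had a median of -0.16, with UQCR10 at -0.21 and UQCR11 at -0.16, and the 6 other complex IV subunits -0.10, with COXFA4 at -0.21 and COX7B at -0.18. In none of these lists did a gene pass the limma test, where 7 of 16 complex I and 2 of 16 ATP synthase genes were lower at an unadjusted p under 0.05 (10.2% of all genes were), the latter a share near the background. Averaging probe sets moved NDUFB7 to -0.29, NDUFA7 to -0.17, ATP5MF to -0.24, UQCR10 to -0.38, UQCR11 to -0.53 and COX7B to -0.52.

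Genes that build or supply the chain had medians between -0.26 and -0.16. The 46 assembly factors had a median of -0.26, 34 with a lower mean (52.2% of all genes) and 21 lower in all lines (16.0%). NDUFAF3, which helps to assemble complex I, had -0.52 in SKNAS, -1.17 in NB1691, -1.13 in SKNBE2 and -1.15 in SKNAS/shHIF1a (mean -0.99 ± 0.15, limma, adjusted p = 0.129), and SDHAF3, which helps iron-sulfur insertion into SDHB, had a mean of -0.88 ± 0.13 (adjusted p = 0.121). The 75 mitochondrial ribosomal proteins had a median of -0.23, with 37 lower in all lines (16.0% of all genes), and MRPS28 and MRPL23 at -0.72 each. Among the 16 electron carriers and feeders of the ubiquinone pool (median -0.24), COQ3, an enzyme of ubiquinone synthesis, had -0.84 ± 0.14 (adjusted p = 0.129), SQOR, which passes electrons from sulfide, had 1.05 ± 0.39 (adjusted p = 0.252), and CYCS, cytochrome c itself, had -0.07 ± 0.13 (adjusted p = 0.803). The 11 measured enzymes of the tricarboxylic acid cycle had a median of -0.16, with SUCLG2 at -0.51 and OGDH at -0.32, the latter -0.10 without NB1691. Of the 15 regulators of mitochondrial genes (median -0.19), NRF1 had -0.74 ± 0.18 (adjusted p = 0.166), GABPA -0.57 ± 0.19 (adjusted p = 0.228; -0.10 when its probe sets were averaged), and PPARGC1A 0.26 ± 0.14 (adjusted p = 0.381). None of these genes passed the limma test. At an unadjusted p under 0.05 15 of 46 assembly factors, 20 of 75 ribosomal proteins, 6 of 16 carriers and 4 of 15 regulators were lower, against 10.2% of all genes, while 1 of 11 cycle enzymes is under that share. Higher at that p were 1 ribosomal protein and 1 carrier, against 7.67% of all genes. Averaging probe sets moved CYCS to -0.44, MRPL23 to -0.34 and PPARGC1A to 0.12, and SQOR was 0.68 without SKNAS/shHIF1a.

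**Figure D4:**
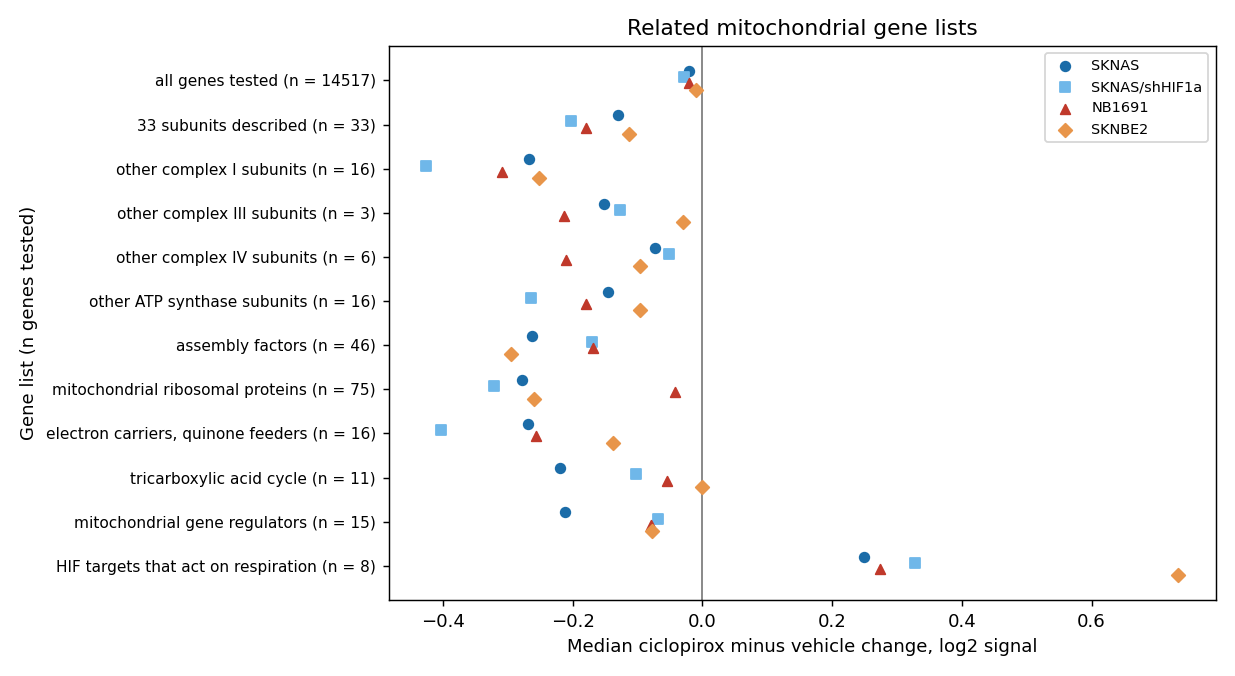
Median change under ciclopirox (log2 signal, horizontal axis) of all genes tested, the 33 genes and 10 related lists in each of the 4 lines, with 1 symbol per line. The lists of subunits, assembly factors, ribosomal proteins and electron carriers lie left of 0 in every line, and the HIF targets lie right of 0.

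Targets of HIF that act on respiration went the other way, although none of the 8 passed the limma test. Their median change was 0.36, with 7 higher in mean (47.8% of all genes were), 5 higher in all lines (11.8%) and 5 higher at an unadjusted p under 0.05 (7.67%). PDK1, the kinase that shuts pyruvate out of the cycle, had 2.61 in SKNAS, 0.90 in NB1691, 1.09 in SKNBE2 and 0.64 in SKNAS/shHIF1a (mean 1.31 ± 0.33, adjusted p = 0.174). The isoforms of complex IV differed between lines. COXFA4L2, a HIF target of the COXFA4 family, had 3.13 with vehicle and 6.16 with ciclopirox in NB1691 and 3.29 and 6.26 in SKNBE2, but 3.33 and 3.42 in SKNAS and 3.18 and 3.21 in SKNAS/shHIF1a. COXFA4L3, another member of that family, had 5.14 and 9.84 in SKNAS and 4.04 and 10.47 in SKNAS/shHIF1a, but 2.67 and 3.16 in NB1691 and 3.15 and 2.87 in SKNBE2. The lines that were high for one were thus low for the other. The difference in response by origin was -2.93 ± 0.22 for COXFA4L2 (limma, adjusted p = 0.0664) and 5.46 ± 0.62 for COXFA4L3 (adjusted p = 0.139), so neither passed the test. COX4I2, the isoform of subunit 4 known from hypoxia, had a mean change of 0.37 ± 0.15 (adjusted p = 0.272), higher in all lines.

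**Figure D5:**
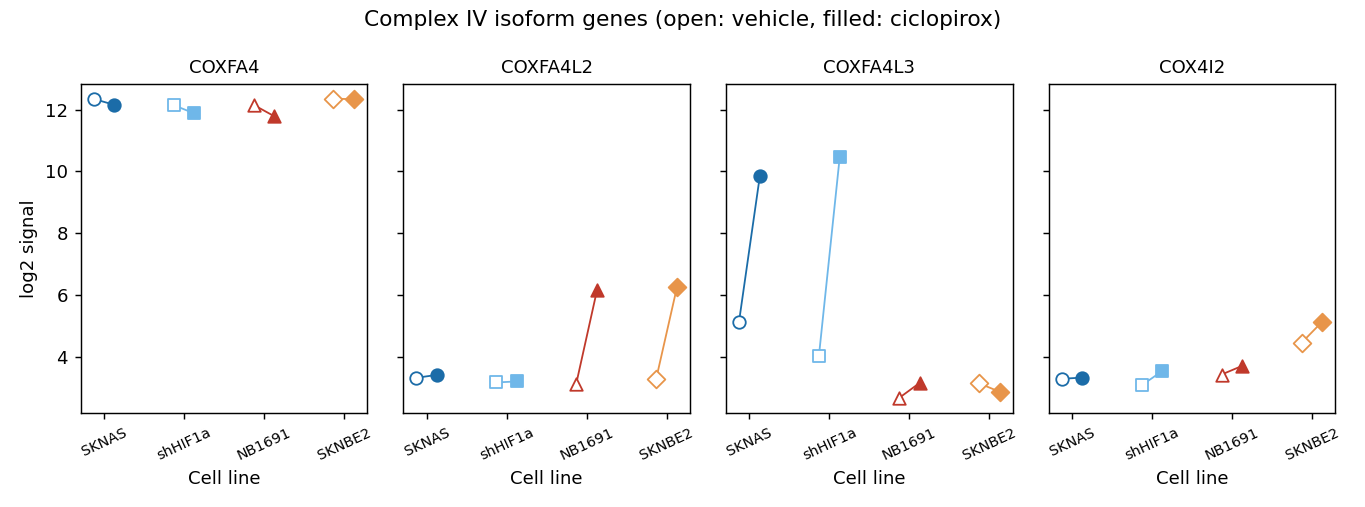
Levels (log2 signal, vertical axis) of COXFA4 and of 3 isoform genes in the 4 cell lines on the horizontal axis, with open symbols for vehicle and filled symbols for ciclopirox, 1 array each; levels of different genes come from different probe sets and are not compared. COXFA4L2 is high with ciclopirox in NB1691 and SKNBE2 (6.16 and 6.26) and COXFA4L3 in SKNAS and SKNAS/shHIF1a (9.84 and 10.47).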

How the data were processed

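The deposited values are log2 signals of perfect-match probe sets, summarised by the authors with RMA, an array normalization, per the submitters' processing notes. Its version is not given in the sources used here. No scaling was added. Array medians lay between 3.47 and 3.52. Of 54715 probe sets, 102 were controls, 40920 had 1 symbol, 864 had several and 12829 were unnamed. A gene took its probe set with the highest mean, and genes were tested where that mean reached the 40th percentile over all probe sets.

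The members and lists were chosen with earlier results of these data known. Vehicle and ciclopirox arrays were paired by cell line, and levels relative to the line mean correlated within each line at 0.817 to 0.898 across genes. limma 3.58.1 in R 4.3.3 was fitted over all tested genes with the line as a block, two-sided, with Benjamini-Hochberg adjustment at 0.05. Differences between lines were contrasts in the same fit, the difference in response used the 4 changes, and line origin used the 4 vehicle arrays. Complexes, cofactors and lists were described by counts and medians with no test. Tables were summarised in Python 3.11.15 with pandas 2.3.3. The fits were tested on simulated data. No label mentions separate cultures within a line, and each line had 1 array per treatment. The p-values therefore measure only the spread between these lines, in which true differences between lines cannot be told from technical variation.

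Described in full were genes of cofactor subunits, the 2 largest changes in size per complex, members past a test or with the 2 largest differences, up to 2 genes per list, and CYCS, PPARGC1A, COX4I2, COXFA4L2, COXFA4L3 and PDK1. NDUFB6, NDUFB3, NDUFA9, NDUFS4, NDUFA10, UQCRC2 and COX4I1 were added after their values were seen. Probe sets are annotated by GEO's platform table, and 16 of the 33 genes had several that passed the filter, with the same sign of change in 7. In the rest the contrary sign mostly came from dim probe sets, with levels from 3.25 in NDUFA2 to 6.85 in NDUFS8. Those used for the genes had at least 9.32. COX4I1 differed in sign between bright ones as well (0.01 at 12.33 and -0.08 at 11.59). Averages of probe sets took all of a gene's on the array, also those below the filter.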

Additional observations from a re-analysis of the deposited data

Results flagged for a closer look

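Of 99 comparisons of 1 line with the other lines (each gene's levels with vehicle, with ciclopirox, and its change), 5 stood apart, where chance gives about 1 in 20. The change of NDUFS7 was 0.093 in SKNBE2, against -0.53 to -0.43 in the other lines. UQCRB was highest in SKNBE2 with vehicle, at 12.48 against 12.07 to 12.08, and with ciclopirox, at 12.52 against 11.92 to 11.99. The change of ATP5F1B was -0.24 in NB1691, against -0.04 to 0.00 elsewhere. The level of ATP5F1B with ciclopirox was 11.95 in SKNBE2, against 11.30 to 11.36 elsewhere.

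For a pair of genes both lines of each origin moved in opposite directions. SDHA was higher under ciclopirox in the SKNAS lines and lower in NB1691 and SKNBE2, with a difference in response of 0.31 (limma, adjusted p = 0.681). COX5A was lower in the SKNAS lines and higher in the others (0.04 in each), with a difference of -0.14 (adjusted p = 0.854). The other, dimmer probe set of COX5A (level 6.61) did not have this pattern. It was lower in every line, with a mean change of -0.42. Neither difference passed the test, and each such pattern was seen in 6.36% or 6.53% of all genes.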

How the results depend on the processing

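No gene passed the ciclopirox test in limma under any alternative, including the fit with no replicate block, where 0 genes passed. Leaving out the block cannot change a mean change, since every line had both treatments. Its 31 members with a lower mean are therefore no separate check. Over all alternatives 27 to 32 members had a lower mean. Averaging probe sets gave a median of -0.11 over the members, -0.16 in complex I and -0.18 in complex IV. Without 1 line, 14 to 21 members were lower in all lines left (19.4% to 24.2% of all genes), and 11 to 14 of the other complex I subunits. For NB1691 against SKNBE2, 0 to 5 members passed without 1 array and 6 to 8 under other settings. The sign turned for SDHD with the SKNAS lines averaged (0.017) and for CYC1 with quantile normalization (0.0073). It also turned in ranges without 1 line: SDHD -0.074 to 0.078 (without SKNBE2 and without SKNAS), CYC1 -0.082 to 0.018 (without SKNAS/shHIF1a and without NB1691), SDHA -0.131 to 0.017 (without SKNAS and without SKNBE2) and CYCS -0.140 to 0.011 (without SKNAS/shHIF1a and without NB1691). The causes were not tested. Centring arrays moved the median of all genes from -0.01 to -0.03. Counts over all genes moved most for line origin, from 0 to 1610 genes without 1 array, and for the knockdown, from 23 to 230.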
